A study of Xenopus tropicalis with 16 samples.

Results

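Genes of NAD salvage were examined in the livers of female tropical clawed frogs (Xenopus tropicalis). The gene set was the rows whose symbol, in any case, was nmrk1, nmrk2, nampt, nmnat1, nmnat3 or nadsyn1. It held 6 rows of the 19921 genes in the tables, because nadsyn1 had 2 rows, and nmnat3 was not analysed here. The set was chosen by the measured levels of nmrk2 in these same livers, so the values of nmrk2 are given as a description with no test. The other rows, also chosen with earlier results of these data known, were tested within a fit across all genes.

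RNA was measured by poly(A)-selected, stranded sequencing of 16 liver libraries in 4 groups of 4 biological replicates. The groups were frogs that were not exposed, frogs exposed to benzo[a]pyrene (a polycyclic aromatic hydrocarbon formed in combustion), frogs exposed to triclosan (an antimicrobial compound) and frogs exposed to a mixture. The series title speaks of a chronic exposure to endocrine disruptors. All animals were female. What the mixture held, the doses, the durations and the ages are not given in the sources.

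NAD is the electron carrier of energy metabolism and is also consumed by sirtuins and by poly-ADP-ribose polymerases (PARPs). Cells rebuild it from nicotinamide through nampt, from nicotinic acid through naprt and nadsyn1, from nicotinamide riboside through the kinases nmrk1 and nmrk2, and from tryptophan through the kynurenine pathway. The nmnat enzymes, nmnat1 among them, join the mononucleotide to the adenylate part and act in all of these routes. The liver is known in mammals as a main site of NAD synthesis from tryptophan, and nmrk2 is known in mammals mainly from muscle.

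Levels are fragments scaled to transcript length and library size (FPKM), rescaled between libraries, and are therefore per length. The depth implied by the Cufflinks confidence intervals was 10.9 to 17.9 M (mega) fragments per library, and 4832 to 6833 genes per library reached an FPKM of 1. Spearman's rho between libraries ran from 0.89 to 0.94 over genes, and 0 pairs of libraries held identical values. Rows for ribosomal RNA took 10.6% of the summed FPKM in mixture replicate 4 and 3.45% in benzo[a]pyrene replicate 4, against 0.589 to 2.39% in the other libraries. The summed level of the hepatocyte markers was 9955 to 27520 over the 16 libraries, without alb, which had missing estimates. That of the ovary markers was at most 1.36.

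Of the riboside kinases, and of all 6 rows, nmrk2 had the highest level. It encodes nicotinamide riboside kinase 2, which phosphorylates nicotinamide riboside to nicotinamide mononucleotide. Its row (ENSXETG00000022049) lies on scaffold GL173147.1 from 757033 to 764732. No source used here names the genome build. In the unexposed livers, nmrk2 stood at 32.9, 12, 48.1 and 41.5 FPKM (33.6 ± 15.7, SD, n = 4). In the benzo[a]pyrene livers its level was 86.7, 117, 76.7 and 52.7 FPKM (83.3 ± 26.7, SD, n = 4). All 4 benzo[a]pyrene livers lay above all 4 unexposed livers, the closest pair being 52.7 and 48.1 FPKM. The triclosan livers held 17.9, 28, 18.3 and 21.4 FPKM (21.4 ± 4.65, SD, n = 4), within the range of the unexposed livers. The mixture livers held 34.5, 56.7, 102 and 44 FPKM (59.2 ± 29.7, SD, n = 4). The mixture livers overlapped the unexposed and the benzo[a]pyrene livers, and all 4 lay above all 4 triclosan livers.

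The order of the group means of nmrk2 was therefore benzo[a]pyrene, mixture, unexposed and triclosan. Neighbours in this order overlapped in their single values. The mean in benzo[a]pyrene was 2.48 times that in unexposed livers, a log2 difference of 1.39 (SE 0.40) on the log2(FPKM + 1) scale. Against triclosan, benzo[a]pyrene stood at 3.89 times (log2 difference 1.88) and the mixture at 2.77 times (log2 difference 1.33). The mixture mean was 1.76 times the unexposed mean (log2 difference 0.84), and triclosan stood at 0.637 of the unexposed mean (log2 difference -0.49). The mixture mean was 0.71 of the benzo[a]pyrene mean (log2 difference -0.55). These 6 differences share one SE of 0.40, because one spread was estimated over all 16 libraries. Leaving out 1 library at a time, the log2 difference between benzo[a]pyrene and unexposed livers ran from 0.97 to 1.61. The difference between mixture and unexposed livers became 0.42 without unexposed replicate 2 and 0.54 without mixture replicate 3. The difference between triclosan and unexposed livers was -0.91 once unexposed replicate 2 was left out, and -0.27 once replicate 3 of that group was. The difference between mixture and benzo[a]pyrene livers ran from -0.33 without mixture replicate 1 to -0.84 without mixture replicate 3.

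**Figure D1:**
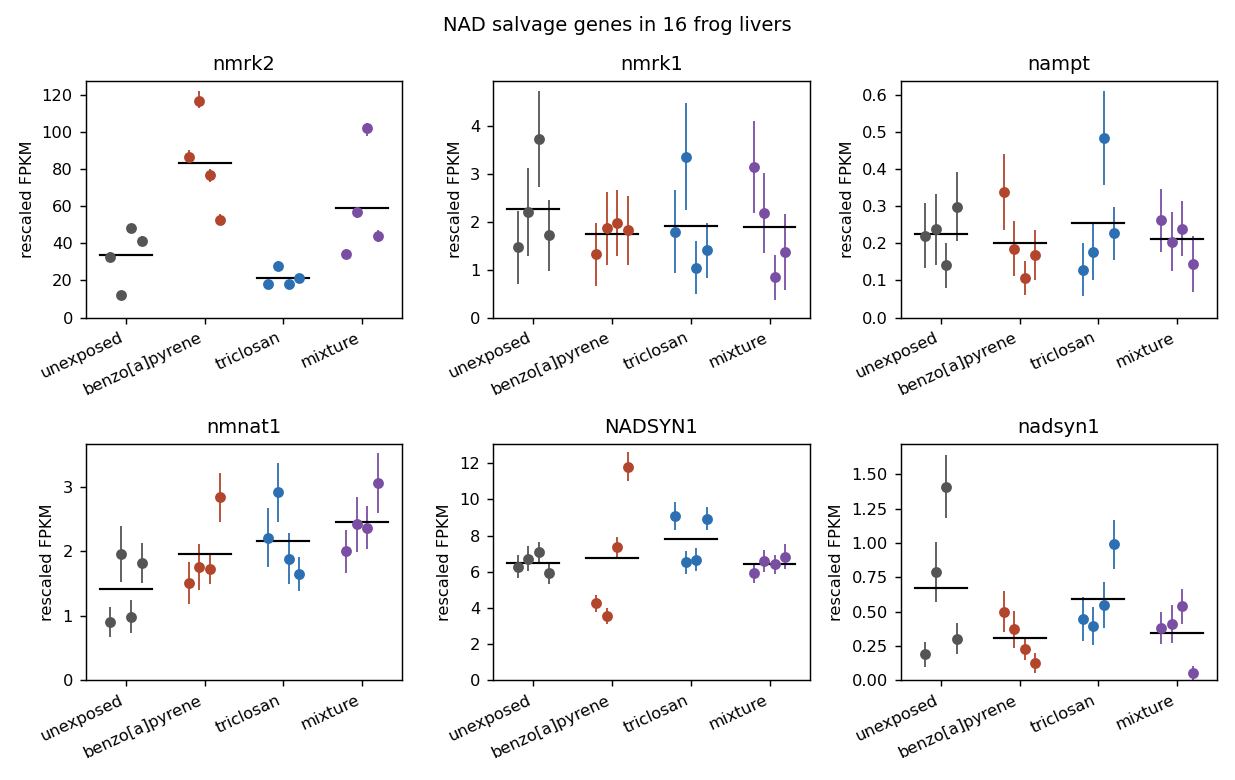
Level of each of the 6 rows (rescaled FPKM, linear axes that start at 0) in the 16 livers, by group. Points are livers in replicate order, thin bars the Cufflinks confidence interval of each library and horizontal lines the group means; nmrk2 reached 117 FPKM in benzo[a]pyrene replicate 2, while nampt stayed below 0.5 FPKM in every liver.

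For nmrk2, the confidence intervals implied 205 to 3226 fragments per library, and in unexposed replicate 2, the lowest liver, the interval was 10.3 to 13.7 FPKM. In benzo[a]pyrene replicate 2, the highest liver, it was 113 to 122 FPKM. The highest liver held 9.75 times the level of the lowest, and nmrk2 ranked from 299 to 1494 among the genes of a library.

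The gene nmrk1, which encodes the other nicotinamide riboside kinase and is the broadly expressed one in mammals, stood much lower. Its row (ENSXETG00000031505, scaffold GL173190.1, 248430 to 258314) held 1.46, 2.2, 3.72 and 1.71 FPKM in unexposed livers (2.27 ± 1.01, SD, n = 4). The benzo[a]pyrene livers held 1.32, 1.86, 1.97 and 1.82 FPKM (1.74 ± 0.291, SD, n = 4). The 4 groups overlapped, since triclosan livers ran from 1.04 to 3.35 FPKM and mixture livers from 0.842 to 3.13 FPKM. The largest of the 6 log2 differences in size was -0.21 (SE 0.27), for benzo[a]pyrene against unexposed, with an adjusted p of 0.749 by limma. The implied depth of nmrk1 was 12 to 56 fragments per library.

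Set against each other within a liver, nmrk2 exceeded nmrk1 in all 16 libraries. The ratio of nmrk2 to nmrk1 in FPKM ran from 5.46 to 24.3 in unexposed livers and from 29 to 65.9 in benzo[a]pyrene livers. It ran from 8.35 to 17.6 in triclosan livers and from 11 to 121 in mixture livers. The mixture maximum of 121 came from replicate 3, which had the highest nmrk2 and the lowest nmrk1 of its group. Of the summed FPKM of the 6 rows, nmrk2 made up 50.2 to 93.8% in single livers.

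The gene nampt encodes nicotinamide phosphoribosyltransferase, the rate-limiting enzyme of salvage from nicotinamide in mammals. Its row (ENSXETG00000005918, scaffold GL172681.1, 2862340 to 2886224) held 0.221, 0.238, 0.141 and 0.299 FPKM in unexposed livers (0.225 ± 0.0651, SD, n = 4). Group means in the exposed livers were 0.2 ± 0.0984 with benzo[a]pyrene, 0.254 ± 0.158 with triclosan and 0.213 ± 0.0509 with the mixture (SD, n = 4 each). The single values ran from 0.106 to 0.484 FPKM, and all groups overlapped. At an implied 13 to 59 fragments per library, nampt did not reach an FPKM of 1 in any liver and was not tested.

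The gene nmnat1 encodes the nuclear enzyme that turns nicotinamide mononucleotide into NAD. Its row (ENSXETG00000022154, scaffold GL173138.1, 434060 to 473720) held 0.904, 1.96, 0.989 and 1.82 FPKM in unexposed livers (1.42 ± 0.55, SD, n = 4). The mixture livers held 2, 2.42, 2.37 and 3.06 FPKM (2.46 ± 0.439, SD, n = 4), all above the unexposed livers, with the closest pair at 2 and 1.96 FPKM. The log2 difference was 0.54 (SE 0.19), with an unadjusted p of 0.0117 and an adjusted p of 0.731 by limma over all 6919 genes tested, so nmnat1 did not pass the test. Among all genes tested, 2.51% were higher in all mixture livers than in all unexposed livers. The triclosan livers held 2.21, 2.92, 1.89 and 1.65 FPKM (2.17 ± 0.549, SD, n = 4; adjusted p = 0.965 by limma) and overlapped the unexposed livers. The benzo[a]pyrene livers held 1.51, 1.76, 1.73 and 2.84 FPKM (1.96 ± 0.594, SD, n = 4; adjusted p = 0.466 by limma) and overlapped them as well.

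The gene nadsyn1 encodes NAD synthetase, which amidates nicotinic acid adenine dinucleotide in the last step of the Preiss-Handler and tryptophan routes. It had 2 rows on scaffold GL172718.1, 3226 bases apart. The upper-case NADSYN1 row (ENSXETG00000031760, 1548870 to 1561430) held 6.27, 6.73, 7.09 and 5.91 FPKM in unexposed livers (6.5 ± 0.518, SD, n = 4). In the benzo[a]pyrene livers it held 4.27, 3.54, 7.37 and 11.8 FPKM (6.75 ± 3.76, SD, n = 4), with livers on both sides of the unexposed range. Benzo[a]pyrene replicates 1 and 2 were the lowest of all 16 livers for NADSYN1 and, in the same group, the highest for nmrk2. Benzo[a]pyrene replicate 4 was the highest of all for NADSYN1 and the lowest of its group for nmrk2, and it is also one of the libraries with most ribosomal RNA (3.45%). In mixture replicate 4, with 10.6% ribosomal RNA, NADSYN1 stood at 6.83 FPKM. The part of ribosomal RNA was not tested. Triclosan livers held 9.09, 6.51, 6.66 and 8.94 FPKM (7.8 ± 1.41, SD, n = 4) and mixture livers 5.92, 6.61, 6.4 and 6.83 FPKM (6.44 ± 0.386, SD, n = 4). No group difference of NADSYN1 passed the test, with adjusted p from 0.637 to 0.998 by limma.

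The lower-case nadsyn1 row (ENSXETG00000000967, 1564656 to 1586443) held 0.188 to 1.41 FPKM in unexposed livers and 0.125 to 0.5 FPKM in benzo[a]pyrene livers. Triclosan livers held 0.394 to 0.991 FPKM and mixture livers 0.0506 to 0.537 FPKM. The groups overlapped, and 1 liver of 16 reached an FPKM of 1, so the row was not tested. The RefSeq table of the assembly UCB_Xtro_10.0 lists 1 nadsyn1 gene, between tpcn2 and astl2f. Whether the 2 rows are copies or fragments of one gene was not settled, and reads could have been split between them.

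Of the 3 rows tested besides nmrk2 (nmrk1, nmnat1 and NADSYN1), 0 passed an adjusted p of 0.05 by limma in any of the 6 comparisons. Over all 6919 genes tested, 0.0289% passed in benzo[a]pyrene against unexposed, 0% in triclosan against unexposed and 0% in mixture against unexposed. For the remaining comparisons, 0.0723% passed in mixture against benzo[a]pyrene, 0% in mixture against triclosan and 0.0867% in benzo[a]pyrene against triclosan. The fit thus called very few genes of any kind. At an unadjusted p under 0.05, the 3 rows gave 1, nmnat1, in triclosan against unexposed and in mixture against unexposed, and 0 in the remaining comparisons. The shares of all genes under that limit were 14.5% in benzo[a]pyrene against unexposed, 4.36% in triclosan against unexposed, 6.56% in mixture against unexposed, 13.1% in mixture against benzo[a]pyrene, 2.89% in mixture against triclosan and 13.9% in benzo[a]pyrene against triclosan. Among the 4 rows that passed the filter on low values, groups without overlap were those of nmrk2, higher in 3 comparisons, and of nmnat1, higher in 1. The shares of all genes higher in the first group without overlap were 4.96% in benzo[a]pyrene against unexposed, 1.24% in triclosan against unexposed, 2.51% in mixture against unexposed, 2.41% in mixture against benzo[a]pyrene, 1.16% in mixture against triclosan and 4.06% in benzo[a]pyrene against triclosan. The shares lower without overlap were, in the same order, 2.79%, 1.55%, 2.01%, 3.14%, 1.37% and 2.4%, and 0 of the 4 rows were lower in this way. Since nmrk2 chose the set, nothing is read from its place among them.

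**Figure D2:**
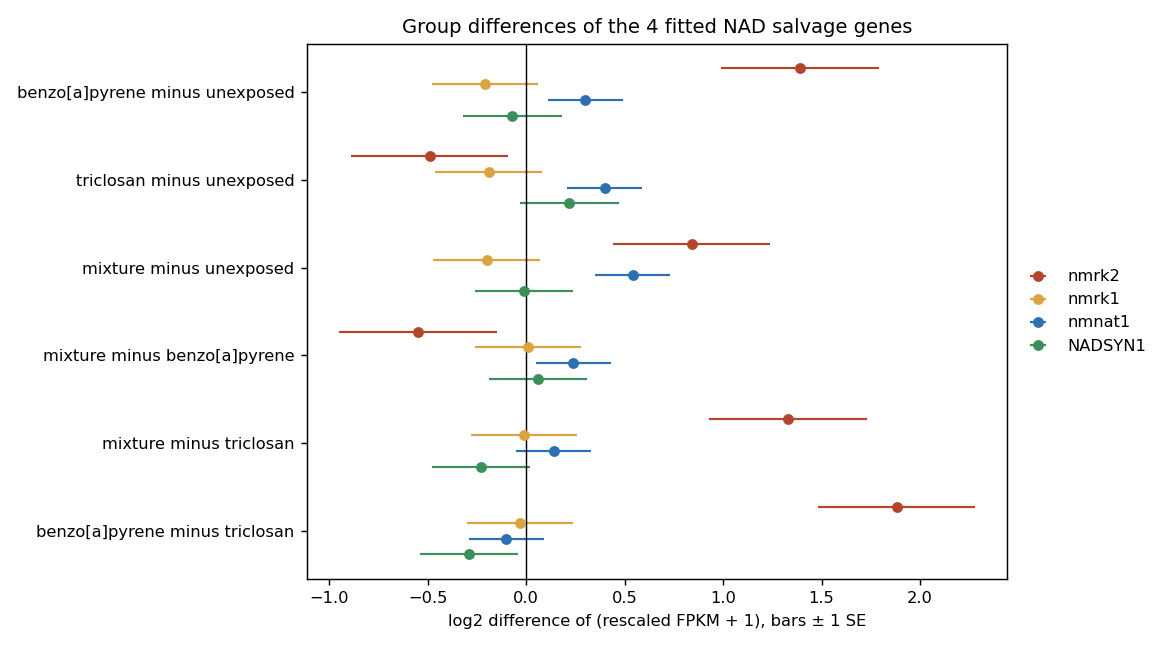
Difference between group means on the log2(rescaled FPKM + 1) scale for the 4 fitted genes in the 6 comparisons; points are differences and bars 1 SE from limma. The points of nmrk2 lie at 1.39 and 1.88 where benzo[a]pyrene is set against unexposed and triclosan livers, and those of nmrk1 lie between -0.21 and 0.01.

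Other cell types and RNA quality were read beside nmrk2. In bulk liver, fewer cells of a type and less RNA per cell cannot be told apart. Of 37 rows for muscle markers, 26 stayed below an FPKM of 1 in every liver, and 0 of the 5 tested were called in any comparison. Titin (TTN) was at or below 0.0049 FPKM and the skeletal ryanodine receptor ryr1 at or below 0.0039 FPKM in all livers, while skeletal actin (acta1) ran from 0 to 12.7 FPKM. Muscle creatine kinase (ckm), the tested muscle marker with the highest mean, held 2.21, 3.79, 4.17 and 11.6 FPKM in benzo[a]pyrene and 0.824, 1.29, 2.34 and 1.92 FPKM in triclosan livers. Unexposed livers held ckm at 2.16 to 4.23 FPKM and mixture livers at 1.12 to 4.33 FPKM. Like that of nmrk2, its group mean was highest with benzo[a]pyrene and lowest with triclosan. The log2 difference between them was 1.16 (SE 0.39), with an adjusted p of 0.22 by limma. The 5 tested muscle markers did not go one way. Between benzo[a]pyrene and unexposed livers, 1 (ckm) was above 0 and 4 below (median -0.44). Between benzo[a]pyrene and triclosan livers, 3 were above 0 and 2 below (median 0.50). The summed muscle level was 4.89 to 39 FPKM in unexposed livers and 5.57 to 34.3 FPKM in benzo[a]pyrene livers. It was 4.36 to 7.76 FPKM in triclosan livers and 5.34 to 20 FPKM in mixture livers. The liver with the highest muscle sum, unexposed replicate 2 at 39 FPKM, had the lowest nmrk2 of all at 12 FPKM. The liver with the highest nmrk2, benzo[a]pyrene replicate 2 at 117 FPKM, had a muscle sum of 5.57 FPKM. The part of muscle RNA in the levels of nmrk2 was not tested.

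Red cell markers were read in the same way. Their sum leaves out hba1 and hbg1, which had missing estimates. Over the livers with an estimate, hba1 averaged 121122 FPKM and hbg1 56970 FPKM, far above the sum of the rest. No benzo[a]pyrene liver had an estimate of hba1, and the triclosan and mixture groups had 1 liver each with an estimate. Its level with benzo[a]pyrene is therefore not known here. By group, hbg1 averaged 46074 ± 18266 FPKM unexposed and 62468 ± 35118 FPKM with benzo[a]pyrene (SD). It averaged 69883 ± 34692 FPKM with triclosan and 52709 ± 22763 FPKM with the mixture (SD). These means leave out livers without an estimate, so they do not rest on like numbers of livers. The groups overlapped, with 32209 to 66771 FPKM unexposed and 37636 to 87300 FPKM with benzo[a]pyrene, so no order is read from them. Most of the summed level of the remaining markers was the globin hbg2. This row averaged 3371 ± 1043 FPKM unexposed and 10866 ± 4937 FPKM with benzo[a]pyrene (SD, n = 4 each). The summed level was 3101 to 5348 FPKM in unexposed livers. It was 16919, 13760, 4840 and 15504 FPKM in benzo[a]pyrene replicates 1 to 4. Triclosan livers held 4341 to 11345 FPKM, and mixture replicates 1 to 4 held 3608, 6261, 9529 and 4342 FPKM. Mixture replicate 3 was the highest of its group for this sum and for nmrk2 (102 FPKM). Triclosan replicate 1 was the highest of its group for the sum and the lowest for nmrk2 (17.9 FPKM). Of 18 tested red cell markers, 17 had a log2 difference above 0 between benzo[a]pyrene and unexposed livers (median 0.90, against 0.00 over all genes), and 0 were called, with a lowest adjusted p of 0.0793 by limma. At an unadjusted p under 0.05 there were 12, all higher, and 8 of the 18 (hbd, alas2, epb41, ank1, epor, nt5c3a, nfe2 and gfi1b) were higher in all 4 benzo[a]pyrene than in all 4 unexposed livers. Over all genes tested, 14.5% were under that limit in either direction and 4.96% were higher without overlap. The gene alas2, which encodes the first enzyme of haem synthesis in red cells, held 684 ± 183 FPKM with benzo[a]pyrene and 340 ± 26.2 FPKM unexposed (SD, n = 4 each). Of 24 tested hepatocyte markers, 21 had a log2 difference below 0 in the same comparison (median -0.52), and 0 were called (lowest adjusted p 0.0793 by limma). At an unadjusted p under 0.05 there were 5, all lower. Lower in all benzo[a]pyrene than in all unexposed livers were 3 (ttr, c3 and cebpa), as were 2.79% of all genes tested. In benzo[a]pyrene replicate 3 the red cell sum of 4840 FPKM was within the unexposed range. The 8 red cell markers without overlap lay above their unexposed ranges there because they were picked for it, so nothing is read from this. The remaining tested red cell markers overlapped between the groups. For klf17, the lowest benzo[a]pyrene level was 6.89 FPKM and the highest unexposed level 9.74 FPKM. For gata1, these were 10.9 and 15 FPKM. Between benzo[a]pyrene and triclosan livers, 18 of 18 were above 0 (median 0.84), and 0 were called (lowest adjusted p 0.0535 by limma). At an unadjusted p under 0.05 by limma there were 10, all higher, and 6 were higher without overlap. The shares of all genes were 13.9% in either direction and 4.06%. Between mixture and unexposed livers, 11 were above 0 and 7 below (median 0.06). The part of red cells in the levels of nmrk2 was not tested.

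**Figure D3:**
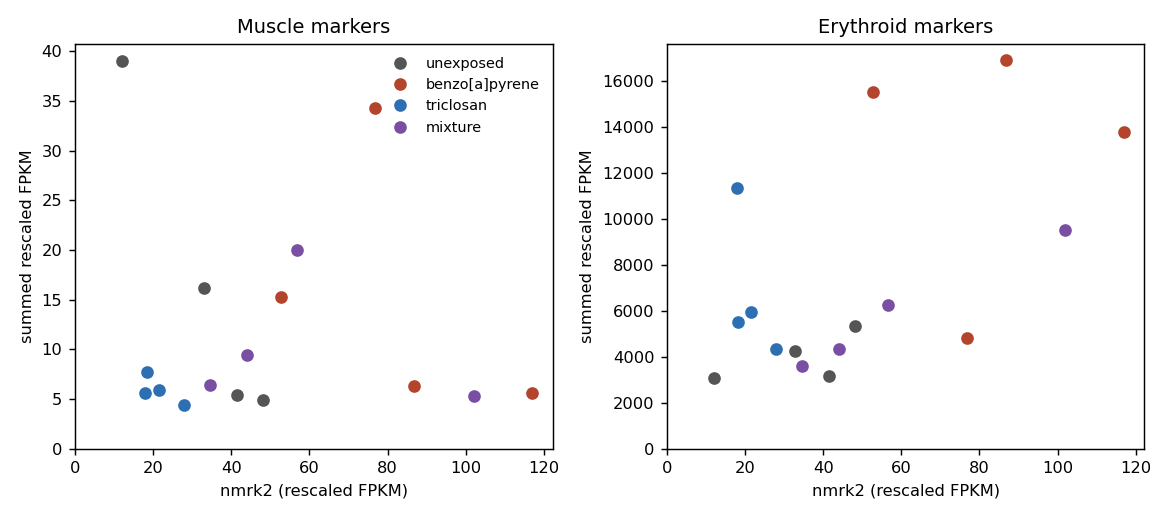
Summed level of muscle markers (left) and red cell markers (right) against nmrk2, all in rescaled FPKM on linear axes, 1 point per liver. The red cell sum leaves out the abundant globin rows hba1 and hbg1, which had missing estimates, and consists mostly of the globin hbg2. The livers with muscle sums of 39 and 34.3 FPKM hold nmrk2 at 12 and 76.7 FPKM, and 3 of the 4 benzo[a]pyrene livers stand at the top of the red cell plot.

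The remaining NAD genes were taken from 5 lists of 65 genes, arranged by role, of which 52 rows were found and 34 tested, 30 of them outside the set. In every comparison, 0 of these 30 were called by limma, and their lowest adjusted p was 0.14 in benzo[a]pyrene against unexposed. At an unadjusted p under 0.05, the 30 numbered 4 in benzo[a]pyrene against unexposed, 0 in triclosan against unexposed, 1 in mixture against unexposed, 7 in mixture against benzo[a]pyrene, 2 in mixture against triclosan and 7 in benzo[a]pyrene against triclosan. The shares of all genes under that limit were, in the same order, 14.5%, 4.36%, 6.56%, 13.1%, 2.89% and 13.9%. Because none passed, the genes below with no other reason given are the 4 of highest mean level in each list.

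In the salvage list, the nicotinic acid phosphoribosyltransferase naprt, which starts the Preiss-Handler route, held 3.47 ± 0.785 FPKM with benzo[a]pyrene and 1.75 ± 0.678 FPKM unexposed (SD, n = 4 each). All 4 benzo[a]pyrene livers (2.8 to 4.5 FPKM) lay above all 4 unexposed livers (1.07 to 2.44 FPKM), as for 4.96% of all genes tested. The log2 difference of 0.72 (SE 0.20) had an adjusted p of 0.14 by limma. The triclosan mean was 2.36 ± 0.68 and the mixture mean 2.28 ± 0.184 FPKM. The median log2 difference of the 6 tested salvage genes was 0.14 between benzo[a]pyrene and unexposed livers, against 0.00 over all genes. These 6 include nmrk2, whose values chose the set, so nothing is read from the median. Besides nmrk2 they were at -0.21 (nmrk1), 0.30 (nmnat1), -0.07 (NADSYN1), 0.72 (naprt) and -0.02 (pnp). For triclosan and the mixture against unexposed the medians, also with nmrk2 included, were 0.15 and 0.14.

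The tryptophan route was the most abundant branch per length. Its 3-hydroxyanthranilate dioxygenase haao averaged 172 ± 26.4 FPKM in unexposed livers and 136 ± 34.7 FPKM in benzo[a]pyrene livers, and 167 ± 26.3 FPKM with triclosan and 169 ± 11 FPKM with the mixture (SD, n = 4 each). The first enzyme of the route, tryptophan dioxygenase tdo2, averaged 84.4 ± 68.8, 59.9 ± 17.3, 73.5 ± 44.7 and 49.7 ± 8.12 FPKM in the same order. Kynurenine formamidase afmid averaged 65.8 ± 4.28, 50.7 ± 16.7, 63.5 ± 17.8 and 62.6 ± 10.4 FPKM. Kynurenine monooxygenase kmo averaged 14.3 ± 5.37, 13.8 ± 3.45, 22.6 ± 8.95 and 19.8 ± 8.16 FPKM. Of these, 0 of the 4 genes passed the test in any comparison. The median log2 difference of the 7 tested genes of the route was -0.18 between benzo[a]pyrene and unexposed livers, with 6 below 0. The summed list ran from 259 to 446 FPKM in unexposed and from 196 to 322 FPKM in benzo[a]pyrene livers, which overlap.

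Chosen after its values were seen, quinolinate phosphoribosyltransferase qprt, where the tryptophan route joins NAD synthesis, was lowest in the benzo[a]pyrene group, where nmrk2 was highest. It held 1.66 ± 0.646 FPKM there (0.997 to 2.32) and 4.95 ± 2.94 FPKM unexposed (2.79 to 9.12; SD, n = 4 each). The log2 difference of -1.08 (SE 0.34) did not pass the test, with an adjusted p of 0.195 by limma. The mixture livers held 4.18 ± 1.4 FPKM (2.38 to 5.53), all above the benzo[a]pyrene livers, with an adjusted p of 0.267 by limma. Of all genes tested, 2.79% were lower in all benzo[a]pyrene than in all unexposed livers. The share higher in all mixture than in all benzo[a]pyrene livers was 2.41%.

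Among the consumers of NAD, 10 of 12 tested genes had a log2 difference above 0 between benzo[a]pyrene and unexposed livers (median 0.23), and 0 were called. Of the PARP genes, parp2, which acts in DNA repair, was chosen after its values were seen. It was higher in all benzo[a]pyrene livers (1.68 to 2.33 FPKM) than in all unexposed ones (0.979 to 1.66 FPKM), as were 4.96% of all genes tested. Its log2 difference was 0.31 (SE 0.13), with an adjusted p of 0.288 by limma. Between mixture and benzo[a]pyrene livers, 11 of the 12 were below 0 (median -0.19). In that comparison parp2 and parp3, also chosen after its values were seen, were lower without overlap, as were 3.14% of all genes. Both were higher without overlap in benzo[a]pyrene against triclosan, as were 4.06% of all genes. The consumers of highest mean level were sirt5, sirt7, parp11 and sirt6, and 0 of them passed in any comparison. In unexposed and benzo[a]pyrene livers they held 13.8 ± 1.02 and 15.8 ± 3 FPKM (sirt5), 6.16 ± 1.49 and 9.27 ± 2.57 FPKM (sirt7), 6.59 ± 1.23 and 8.85 ± 1.95 FPKM (parp11), and 2.55 ± 0.32 and 2.59 ± 0.316 FPKM (sirt6; SD, n = 4 each).

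Of the nicotinamide clearance genes, nnmt encodes the methyltransferase that removes nicotinamide. It held 53.3 ± 37.2 FPKM in unexposed livers, 51.7 ± 22.7 FPKM with benzo[a]pyrene, 37.2 ± 7.34 FPKM with triclosan and 20.1 ± 3.77 FPKM with the mixture (SD, n = 4 each). The mixture livers (16.7 to 25.4 FPKM) lay below all benzo[a]pyrene livers (30.2 to 79 FPKM) and all triclosan livers (29.2 to 46.2 FPKM). Among all genes tested, 3.14% were lower in this way against benzo[a]pyrene and 1.37% against triclosan. The log2 difference of nnmt from benzo[a]pyrene was -1.23 (SE 0.39), with an adjusted p of 0.214 by limma. That from triclosan was -0.85, with an adjusted p of 0.998 by limma. Mixture livers overlapped the unexposed livers (23.3 to 107 FPKM), with a log2 difference of -1.15 and an adjusted p of 0.731 by limma. The other tested gene of this list, AOX1, went the other way. It averaged 16.9 ± 10.2 FPKM unexposed, 13.3 ± 6.98 with benzo[a]pyrene, 15.7 ± 5.24 with triclosan and 19.2 ± 11.3 with the mixture. Its log2 differences of the mixture from benzo[a]pyrene and triclosan were 0.48 and 0.19 (adjusted p 0.645 and 0.998 by limma). In the list of NADP and redox upkeep, 0 of 7 tested genes were called. Its highest levels in unexposed and benzo[a]pyrene livers were 27.3 ± 3.9 and 31.5 ± 4.1 FPKM for nudt7, 18.7 ± 4.55 and 21.9 ± 1.18 FPKM for the mitochondrial NAD kinase nadk2, 11.6 ± 2.39 and 14.6 ± 4.39 FPKM for carkd, and 5.34 ± 2.77 and 4.86 ± 3.6 FPKM for apoa1bp (SD, n = 4 each). Of these, carkd, an NAD(P)HX dehydratase, was higher in all mixture than in all triclosan livers (log2 difference 0.52, SE 0.22, adjusted p 0.998 by limma). It was also higher in all benzo[a]pyrene than in all triclosan livers (log2 difference 0.55, SE 0.22, adjusted p 0.297 by limma). The shares of all genes higher without overlap in these comparisons were 1.16% and 4.06%. Of the circadian clock genes, which control nampt in mammals, 10 were tested and 0 were called in any comparison. Their lowest adjusted p was 0.119 by limma, for cry2 in mixture against benzo[a]pyrene. There per3 was higher without overlap, and cry2 and nr1d1 lower, against 2.41% and 3.14% of all genes. Also without overlap, per3 was lower in benzo[a]pyrene than unexposed livers (2.79% of all genes). So were nr1d1, lower in mixture than triclosan livers (1.37%), and cry2, higher in benzo[a]pyrene than triclosan livers (4.06%).

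**Figure D4:**
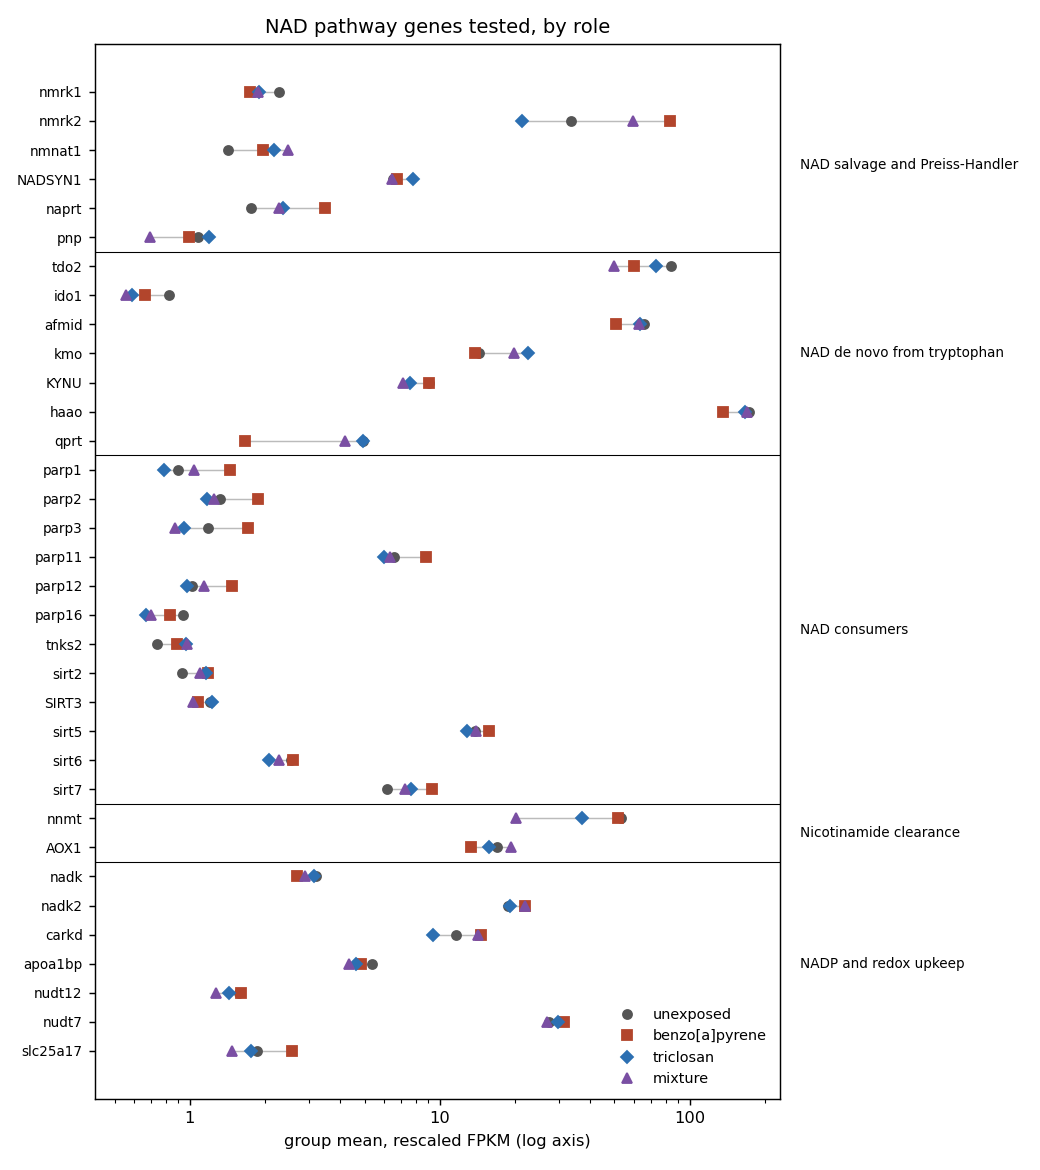
Group mean level (rescaled FPKM, log axis) of the 34 tested NAD genes, ordered by role, with 1 symbol per group and a grey line joining the lowest and highest group mean. The symbols of nmrk2 run from 21.4 to 83.3 FPKM, and haao in the tryptophan list holds the highest level, 136 to 172 FPKM.

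Among 6407 tested genes with a symbol, the pattern most like nmrk2 over the 16 livers was that of slc20a1, a sodium-dependent phosphate transporter. Pearson's r on the log2 scale was 0.94, and 0.93 after each group's mean was taken out. Its levels were 11.9, 5.45, 17.1 and 14.4 FPKM in unexposed livers and 20.2, 31.7, 14.3 and 13.6 FPKM in benzo[a]pyrene livers. In triclosan livers they were 7.54, 11.2, 10.2 and 9.04 FPKM, and in mixture livers 12.2, 18.3, 24.7 and 11.5 FPKM. Both genes were lowest in unexposed replicate 2 and highest in benzo[a]pyrene replicate 2. The next were ufd1l (r = 0.89, and 0.77 within groups), hpgd, which inactivates prostaglandins (0.86 and 0.71), zxdc (0.85 and 0.78) and the lymphatic growth factor vegfc (0.85 and 0.74).

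The most opposite patterns were those of nup50, a nucleoporin (r = -0.84, and -0.77 within groups), the thyroid hormone carrier ttr (-0.82 and -0.57) and polr2f, an RNA polymerase subunit (-0.80 and -0.65). The level of ttr averaged 92.5 ± 52.9 FPKM in benzo[a]pyrene and 377 ± 178 FPKM in unexposed livers (SD, n = 4 each). These correlations were picked as the extremes of 6407 and come from livers that share library, depth and group, so they carry no p.

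**Figure D5:**
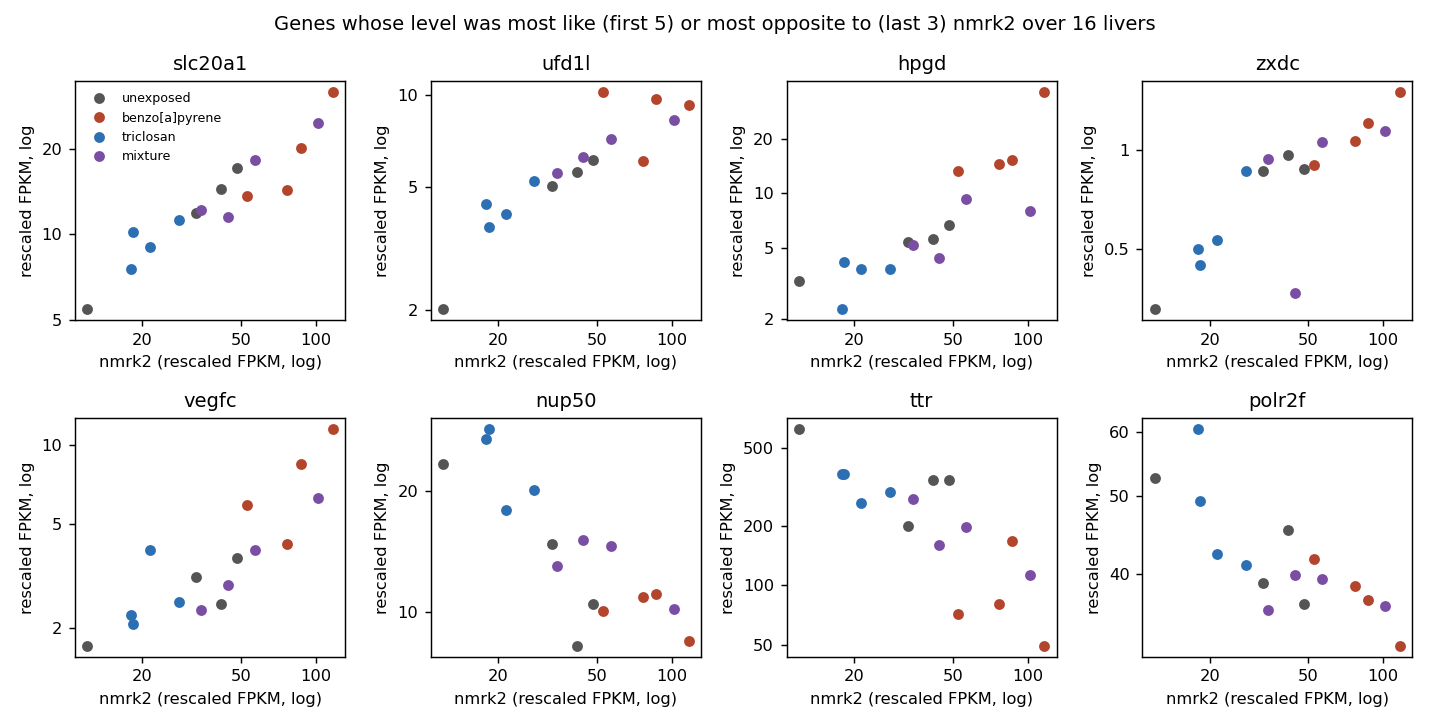
Level of the 5 genes most like nmrk2 and the 3 most opposite to it against nmrk2 in each liver (rescaled FPKM, log axes), coloured by group. The points of slc20a1 lie closest to a line (r = 0.94), and those of ttr lie lower in livers with more nmrk2 (r = -0.82).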

How the data were processed

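Per the labels, RNA from the liver of each biological replicate was made into stranded, poly(A)-selected libraries (TruSeq) and read as 75-base reads. The deposited tables hold gene-level FPKM values that the authors made with Cufflinks, each with the bounds of a confidence interval and a status flag. The submitters' processing notes name, without roles, Cufflinks 0.0.7, TopHat, TopHat2 0.6, Bowtie 0.12.7 and Trimmomatic 0.32.1. Counts were not used here, and no source used here says whether strand was used in counting. Implied fragments were computed as the square of an estimate over its confidence half-width divided by 2. They follow the width of the interval, are not counts of fragments and do not cover the spread between livers.

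For this report, 54 estimates of 10 genes were set to missing because of a status other than OK. Libraries were rescaled by the median of ratios over 3959 genes (factors 0.584 to 1.34). Genes at an FPKM of at least 1 in at least 4 libraries, with at least 3 values per group, were tested (6919). log2(rescaled FPKM + 1), which understates changes of low genes, was fitted with limma 3.58.1 in R 4.3.3 (trend and robust, 1 mean per group over all 16 libraries, 12 residual degrees of freedom). P-values are two-sided and adjusted by Benjamini-Hochberg over all genes tested, with a threshold of 0.05. The fit was tested on simulated data.

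Members and lists were chosen with earlier results of these data known. Named genes are all 6 rows, genes of the NAD lists that passed the test or else the 4 of highest mean level per list, and the 5 genes most like and 3 most opposite to nmrk2 by Pearson's r. Others named were chosen after their values were seen. Coordinates are those of the deposited tables. Sequences were not used here. Alternatives were no rescaling, a pseudocount of 0.1, no filter, a block for the replicate number, each library left out, and both libraries rich in ribosomal RNA left out.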

Additional observations from a re-analysis of the deposited data

How the results depend on the processing

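Without a filter, without rescaling, with a pseudocount of 0.1, with a replicate block (0 members called in each of the 6 comparisons) and without both libraries rich in ribosomal RNA, no member was called. Leaving out 1 library at a time gave 0 to 1 members called in benzo[a]pyrene against triclosan (1 without unexposed replicate 2 and 1 without mixture replicate 3). These counts include nmrk2, which was part of the fit. The member called is nmrk2, whose values chose the set, so its calls are no test of it and nothing is read from them. Of 24 same-number pairs of libraries, 6 correlated above 0.1 (highest 0.263), and their median was -0.047, against 0.0219 for other pairs. Same-number libraries were thus not more alike by the median. Low correlations over all genes cannot settle whether the replicate numbers pair the samples.

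Over all genes, benzo[a]pyrene against unexposed gave 2 calls, which became 0 without rescaling, with a pseudocount of 0.1, with the replicate block and without both libraries rich in ribosomal RNA, and 1 with no filter. It ran from 0 to 41 leaving out 1 library (41 without benzo[a]pyrene replicate 3, which also gave the highest counts below). Mixture against benzo[a]pyrene gave 5 calls, which became 3 without rescaling and 0 with the block or without both libraries, and 0 to 27 leaving out 1 library. Benzo[a]pyrene against triclosan gave 6 calls, which became 2 without rescaling, 3 with a pseudocount of 0.1, 0 with the block or without both libraries, and 0 to 58 leaving out 1 library. The causes were not tested.

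For nmrk1, nmnat1 and NADSYN1, 0 of 378 estimates passed, with a lowest adjusted p of 0.303 by limma, and 22 changed sign, all with a log2 difference of at most 0.19 in size to start from. For nmrk1, mixture against benzo[a]pyrene became -0.06 without rescaling and -0.03 with a pseudocount of 0.1, mixture against triclosan became 0.06 without both libraries, and benzo[a]pyrene against triclosan became 0.00 without rescaling. NADSYN1 in mixture against benzo[a]pyrene became -0.06 without rescaling. Leaving out 1 library, nmrk1 ran from -0.41 to 0 in triclosan against unexposed, from -0.18 to 0.2 in mixture against benzo[a]pyrene, from -0.21 to 0.2 in mixture against triclosan and from -0.17 to 0.19 in benzo[a]pyrene against triclosan. nmnat1 ran from -0.23 to 0 in benzo[a]pyrene against triclosan. NADSYN1 ran from -0.36 to 0.14 in benzo[a]pyrene against unexposed, from -0.05 to 0.03 in mixture against unexposed and from -0.15 to 0.35 in mixture against benzo[a]pyrene.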

Other observations

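Next to nmrk2 on its scaffold, 5394 bases away, lies sqrdl, which encodes the sulfide oxidising enzyme of mitochondria. It was chosen after its values were seen. It held 8.03, 5.17, 10.8 and 4.7 FPKM in unexposed livers and 16.2, 24.1, 7.74 and 10.5 FPKM with benzo[a]pyrene. It held 2.17, 3.93, 9.65 and 5.8 FPKM with triclosan and 10.8, 10.9, 7.24 and 4.94 FPKM with the mixture. The order of its group means was that of nmrk2, the groups of benzo[a]pyrene and unexposed livers overlapped, and benzo[a]pyrene replicate 2 was highest for both genes. Over the 16 livers Pearson's r with nmrk2 was 0.63, and 0.25 after each group's mean was taken out. By the first value sqrdl ranked 190 among the 6407 tested genes with a symbol. The neighbour on the other side, cdc42se2, averaged 0.541 FPKM in unexposed livers, 0.723 FPKM with benzo[a]pyrene, 0.624 FPKM with triclosan and 0.725 FPKM with the mixture.

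Within the benzo[a]pyrene group, the marker sums for granulocytes ran from 6.79 to 69.4 FPKM, for macrophages from 121 to 298 FPKM, for lymphocytes from 3.75 to 9.22 FPKM, for bile duct from 415 to 965 FPKM and for endothelium from 4.69 to 6.75 FPKM. The same sums in unexposed livers were 25.9 to 111, 113 to 211, 2.03 to 4.09, 677 to 1704 and 4.86 to 7.17 FPKM. Between these groups, 7 of 7 tested granulocyte markers (median -0.72) and 9 of 9 bile duct markers (median -0.64) were below 0. Above 0 were 5 of 7 macrophage markers, 3 of 4 lymphocyte markers and 0 of 4 endothelial markers. None was called. Under an unadjusted p of 0.05 by limma were 1, 4, 0, 2 and 0 of them in this order, against 14.5% of all genes.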
